A study of Rattus norvegicus with 12 samples.

Results

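Of 14871 genes measured, 10 were chosen as genes of brain endothelium and its barrier: the transporter genes Abcb1a and Slco1a4, the junction and adhesion genes Cldn5, Cdh5, Pecam1 and Esam, the receptor genes Kdr, Flt1 and Tek, and Vwf. The list of 10 symbols, drawn up with earlier results of these data known, picks 20 of the 44290 spots of a whole-genome rat array. The RNA came from axotomized and from non-axotomized co-cultures of entorhinal cortex and hippocampus, grown as slices in medium with horse serum. In the axotomized cultures the entorhino-hippocampal pathway, the bundle of axons that joins both slices, was cut with a knife after 15 days in vitro, and RNA was taken 1, 3 or 7 days later; the non-axotomized cultures were taken at the same times. The labels name the species as Rattus norvegicus, while their treatment protocol speaks of wild type mice. Which species holds could not be settled. There were 2 biological replicates at each of the 3 days, hybridised on 2 arrays each with the dyes exchanged. The labels leave unsaid how many cultures or animals went into a replicate, so p-values measure the spread between these samples, which may be technical. A value above 0 stands for more RNA in axotomized than in non-axotomized cultures, on a log2 scale. That direction is likely, judged by how titles and channels are ordered; were the table to run the other way, every sign would turn. Slices have no blood flow, so these cultures are a model of vessel cells without perfusion.

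Brain endothelial cells line the capillaries and form the blood-brain barrier. Tight junctions built from claudins close the gaps between the cells, and efflux pumps and carriers in their membranes set which molecules cross. The receptors for vascular endothelial growth factor (VEGF) and for the angiopoietins keep the cells alive and steer the growth and stability of the vessels. Several of these genes are also active elsewhere: Pecam1 in white blood cells and platelets, Vwf in megakaryocytes, Flt1 in monocytes, and Slco1a4 in the choroid plexus. The deposited table holds ratios and no intensities, so whether an endothelial gene was detected at all in the cultures cannot be read from it.

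The promoters of Abcb1a and of its neighbour and close relative Abcb1b are shown because, of the 2 genes, Abcb1a passed the test at day 3 and Abcb1b did not. Both are from RefSeq on build GRCr8, minus strand, from 250 bases before the gene's start to 50 bases after it, Abcb1a at chr4:26397599-26397898 and Abcb1b at chr4:26279980-26280279. Capitals mark matches on either strand to 8 motifs: AP-1 (TGACTCA), the CCAAT box (CCAAT), the GC box (GGGCGG), ETS (CCGGAA), CRE (TGACGTCA), C/EBP-ATF (TGATGCAA), the TATA box (TATAAA) and HRE (ACGTG).
Abcb1a: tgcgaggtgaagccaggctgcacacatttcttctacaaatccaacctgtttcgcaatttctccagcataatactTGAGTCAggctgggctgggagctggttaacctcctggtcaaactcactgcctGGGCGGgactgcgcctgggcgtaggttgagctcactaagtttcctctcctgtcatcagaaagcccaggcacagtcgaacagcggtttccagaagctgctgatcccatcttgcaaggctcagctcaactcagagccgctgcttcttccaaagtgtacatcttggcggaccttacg
Abcb1b: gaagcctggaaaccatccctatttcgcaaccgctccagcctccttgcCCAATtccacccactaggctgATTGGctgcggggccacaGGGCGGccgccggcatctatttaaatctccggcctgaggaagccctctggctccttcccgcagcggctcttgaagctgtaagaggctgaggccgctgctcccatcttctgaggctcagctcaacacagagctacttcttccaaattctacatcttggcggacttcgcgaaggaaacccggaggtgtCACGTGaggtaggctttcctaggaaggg
The Abcb1a window holds 1 AP-1 match, 176 bases before the start, and 1 GC box match, 124 bases before it. The Abcb1b window holds 2 CCAAT box matches and 1 GC box match before the start and, after it, overlapping HRE matches on the 2 strands. Among all 33469 promoter windows of this length, 4.63% hold the AP-1 letters, 37.5% the CCAAT box, 33.1% the GC box, 15.0% ETS, 1.83% CRE, 0.795% C/EBP-ATF, 14.2% the TATA box and 19.3% HRE. In the best local alignment of the 2 windows, 65 of 78 aligned positions were identical (83.3%), starting 34 bases before the start of Abcb1a. These matches describe letters in a window and are not evidence of binding. Of the 10 members, 5 have a promoter in the table used. Besides Abcb1a these are Slco1a4, with a CCAAT box 102 bases before the start and overlapping HRE matches, and Cldn5, with 2 CCAAT boxes and a GC box. Kdr has a CCAAT box, a GC box and 2 ETS matches, and Flt1 has 3 GC boxes, a CRE and a TATA box.

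The spread of the arrays limits what follows. Pearson's r over genes, not independent of each other, was -0.08 to 0.47 for dye-swapped arrays, and for pair means of the 2 replicates it was 0.48, 0.40 and 0.29 at days 1, 3 and 7. Over all genes, 88 passed at day 1, 153 at day 3 and 0 at day 7 (limma, adjusted p under 0.05 over all genes), which is 0.592%, 1.03% and 0% of the genes tested. At day 7, 1393 genes had an unadjusted p under 0.05. The calls at day 1 were 55 higher and 33 lower (0.37% and 0.222%), and at day 3 they were 88 higher and 65 lower (0.592% and 0.437%); after quantile normalization of the arrays the split at day 3 was 35 higher and 40 lower.

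Abcb1a, which encodes the efflux pump P-glycoprotein, was lower in axotomized cultures at day 3, and it was the 1 member of 10 that passed on any day, where 0.437% of all genes passed as lower at day 3. At day 3 its log2 ratio was -0.80 in replicate 1 and -0.66 in replicate 2. Both replicates were low, and the 4 arrays ran from -0.82 to -0.51, all below 0 in either dye orientation. The mean was -0.73 ± 0.10 (SD, n = 2; adjusted p = 0.0232), which is 1.66-fold lower in axotomized cultures, with a 95% interval of -0.89 to -0.57 on the log2 scale. In rank it was the 17th lowest of the 14871 genes at day 3. In RNA of whole cultures, fewer cells of a type and less RNA per cell cannot be told apart.

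At day 1 the log2 ratio of Abcb1a was -0.41 in replicate 1 and -0.17 in replicate 2, a mean of -0.29 ± 0.17 that did not pass (adjusted p = 0.166, unadjusted p = 0.00477). All 4 arrays were below 0, from -0.45 to -0.031. At day 7 it was 0.012 and 0.038, a mean of 0.025 ± 0.018 (adjusted p = 0.938), and the sign of the arrays went with the dye. They read 0.16 and 0.12 with axotomized RNA in Cy5 and -0.14 and -0.045 with it in Cy3, so the mean near 0 comes from values of opposite sign. The replicates of days 1 and 3 did not overlap, nor did those of days 3 and 7. The difference of day 3 minus day 1 was -0.44 (interval -0.67 to -0.21, adjusted p = 0.243), and that of day 7 minus day 3 was 0.76 (interval 0.53 to 0.99, adjusted p = 0.0557). Neither passed, so the data do not settle that the days differ. The average over the 3 days was -0.33 and passed (adjusted p = 0.048); for this average 0.316% of all genes passed, and 0.148% as lower. The call of the average was lost when any of the 6 replicates was left out (adjusted p of 0.101 to 0.135), with a replicate block (adjusted p = 0.0649), and with quantile normalization, which gave -0.73 (adjusted p = 0.084).

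The call at day 3 rests on 1 spot and on the spread shared by all days. In the test of all 44290 spots, the spot of Abcb1a had the same value and did not pass (adjusted p = 0.0554). The adjusted p was 0.056 without either replicate of day 1, 0.1 without day 3 replicate 1 and 0.0973 without day 3 replicate 2, and 0.107 with day 3 fitted alone; the values were then -0.73, -0.66, -0.80 and -0.73. Quantile normalization of the arrays gave -1.67 in place of -0.73 (adjusted p = 0.0497). It was run on all 44290 spots, among them 733 with a part over 1 that turns with the dye. The part of these spots in the larger ratios it gave for this and other genes was not tested.

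**Figure D1:**
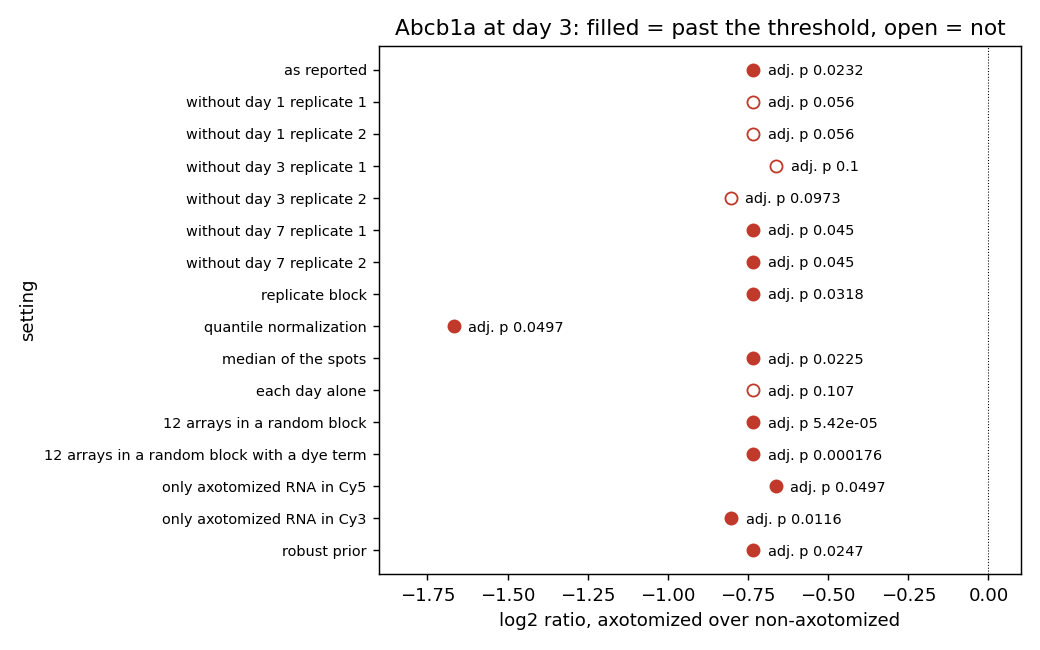
Abcb1a at day 3 under each setting tried: the x axis is the log2 ratio of axotomized over non-axotomized cultures, each row is a setting, filled points passed an adjusted p of 0.05 and open points did not. Every value lies below 0, 10 of the 15 alternatives passed, and quantile normalization stands apart at -1.67. Those that did not pass left out a replicate of day 1 or day 3, or fitted day 3 alone. Among those that passed, the median of the spots cannot change the value of a gene with 1 spot. The random blocks enter the dye-swapped arrays of 1 RNA pair singly, with 1 estimated correlation between them for all genes. That correlation was -0.17 without a dye term and 0.23 with it.

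Abcb1b, the second P-glycoprotein gene of rodents, had log2 ratios of 0.0078 and 0.022 at day 3, a mean of 0.015 ± 0.0099 (adjusted p = 0.926, interval -0.096 to 0.13). Its interval at day 3 does not reach that of Abcb1a, and the difference between both genes was not tested. Its means at days 1 and 7 were 0.054 ± 0.11 and -0.0095 ± 0.0074. On every one of the 12 arrays its sign went with the dye: from -0.24 to -0.075 with axotomized RNA in Cy5 and from 0.041 to 0.34 with axotomized RNA in Cy3. Abcb1a showed no such split at day 3. The coding sequences of both genes are much alike, and whether a probe reads only 1 of them was not tested.

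**Figure D2:**
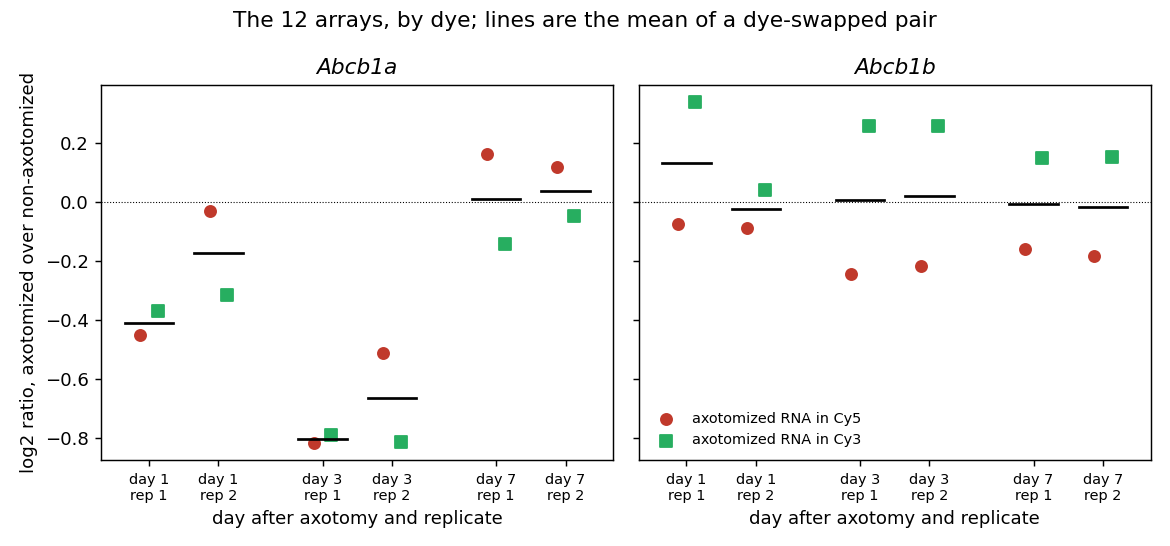
Log2 ratio (y axis) of Abcb1a and Abcb1b on each of the 12 arrays, by day and replicate (x axis), with circles for axotomized RNA in Cy5, squares for axotomized RNA in Cy3 and a line at the mean of each dye-swapped pair. Abcb1a lies at or below -0.51 on all 4 arrays of day 3, while the Abcb1b values lie on opposite sides of 0 for the 2 dyes on every day.

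Slco1a4, the gene of an organic anion carrier of the barrier, stayed within a narrow range. Its log2 ratios were -0.0099 and -0.028 at day 1, 0.024 and -0.014 at day 3, and -0.0037 and -0.026 at day 7. All 6 lie within 0.03 of 0 and the days overlap. None passed (adjusted p = 0.86, 0.965 and 0.92), and the 95% intervals ran from -0.098 at the lowest to 0.084 at the highest. On single arrays the values ran from -0.13 to 0.11, all below 0 with axotomized RNA in Cy5 and all above 0 with it in Cy3. Its relatives did not pass (adjusted p of 0.331 or more). Slco1a1 had means of 0.079, 0.091 and 0.0096 at the 3 days, and Slco1a5 had -0.018, 0.13 and -0.036.

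The junction and adhesion genes showed no change that passed. Cldn5, the main claudin of brain endothelium, had -0.11 and 0.14 at day 1, -0.14 and 0.17 at day 3, and 0.026 and 0.13 at day 7. Its replicates lie on opposite sides of 0 at days 1 and 3, and replicate 1 was the lower on each day. The means of 0.014, 0.017 and 0.078 are smaller than or close to their SDs of 0.18, 0.22 and 0.075 (adjusted p of 0.833 or more). The intervals allow a change of -0.21 to 0.30 at most. Cdh5, the cadherin of endothelial adherens junctions, had 0.0095 and 0.052, 0.094 and -0.027, and 0.0022 and -0.031 at the 3 days, with intervals within -0.12 and 0.14 (adjusted p of 0.784 or more). Esam, an adhesion molecule of endothelial tight junctions, had -0.07 and 0.064, -0.046 and -0.01, and -0.021 and 0.034, with intervals within -0.14 and 0.11 (adjusted p of 0.834 or more). For Esam the days overlap. For Cdh5 both values of day 7 lie below both of day 1, a difference of -0.045 that did not pass (interval -0.19 to 0.098, adjusted p = 0.812).

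Pecam1, the adhesion molecule CD31, had 0.079 and 0.039 at day 1, 0.15 and 0.11 at day 3, and -0.075 and -0.23 at day 7. Both replicates were above 0 at days 1 and 3 and below 0 at day 7. The means were 0.059 ± 0.028, 0.13 ± 0.034 and -0.15 ± 0.11 (adjusted p = 0.646, 0.287 and 0.425). Day 7 minus day 3 was -0.28, with an interval of -0.44 to -0.12, and did not pass (adjusted p = 0.151, unadjusted p = 0.00552). Its 2 spots were not alike at day 7, with -0.28 ± 0.16 on one and -0.028 ± 0.054 on the other. Markers of microglia and macrophages, a class of cells that can also express Pecam1, had a median of 0.15, 0.22 and -0.12 at days 1, 3 and 7. At these days 9, 10 and 1 of 10 were above 0, while 43.6%, 46.2% and 47.8% of all genes were below 0. None of the markers passed the test, and their part in the values of Pecam1 was not tested.

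Among the receptors, Kdr, the main signalling receptor for VEGF, varied most and did not pass. Its log2 ratios were -0.35 and -0.20 at day 1, -0.12 and 0.42 at day 3, and 0.15 and 0.15 at day 7. Day 1 was low in both replicates and on all 4 arrays, from -0.43 to -0.20, and day 7 was above 0 on all 4, from 0.0088 to 0.28. The means were -0.28 ± 0.11, 0.15 ± 0.38 and 0.15 ± 0.0052 (adjusted p = 0.416, 0.66 and 0.741). Day 7 minus day 1 was 0.43, with an interval of 0.0023 to 0.85 (adjusted p = 0.385), and the 2 replicates of these days do not overlap. Quantile normalization gave -0.78 at day 1 in place of -0.28 and 0.54 at day 3 in place of 0.15 (adjusted p = 0.569 and 0.673).

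Flt1, the VEGF receptor that binds the ligand tightly and signals weakly, had -0.10 and -0.074 at day 1, -0.015 and -0.018 at day 3, and 0.024 and -0.0088 at day 7. Day 1 was the lowest, with a mean of -0.089 ± 0.022 that did not pass (adjusted p = 0.336, unadjusted p = 0.0328). Its 4 spots differed at day 1, from -0.21 ± 0.092 to 0.0092 ± 0.037. Tek, the receptor Tie2 for angiopoietins, had means of -0.0087, -0.0042 and 0.014, with replicates between -0.033 and 0.033 and intervals within -0.091 and 0.096 (adjusted p of 0.929 or more). On all 6 arrays with axotomized RNA in Cy5 its values were below 0, and on all 6 with it in Cy3 they were above 0. Vwf, the gene of von Willebrand factor, which endothelial cells store and release for clotting, had -0.086 and 0.069, 0.033 and -0.025, and -0.034 and 0.10 at the 3 days. Its replicates lie on opposite sides of 0 on each day (adjusted p of 0.886 or more).

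**Figure D3:**
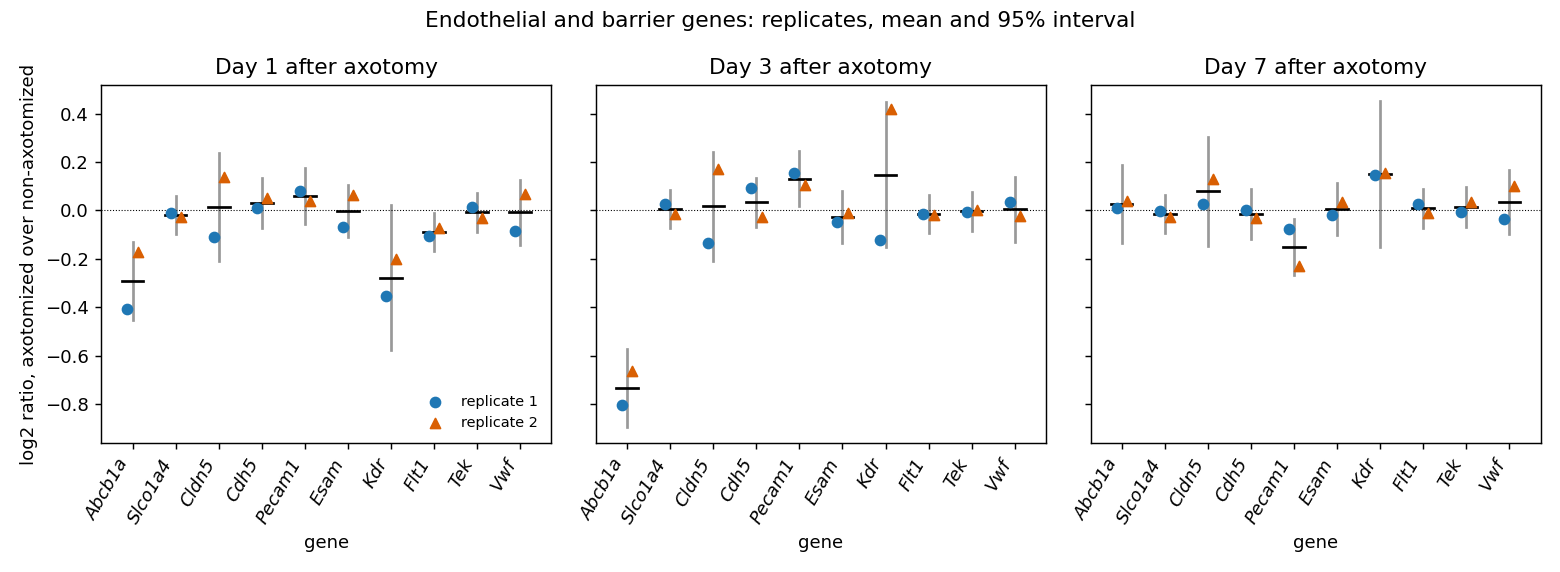
Log2 ratio (y axis) of the 10 genes (x axis) at days 1, 3 and 7 after axotomy: points are the 2 replicates, black lines their mean and grey lines the 95% interval of limma's fit. Abcb1a at day 3 lies at -0.73, apart from the other 9 genes, whose means at that day run from -0.028 to 0.15.

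The 10 genes as a group had medians near 0. The median log2 ratio was -0.0085, 0.0046 and 0.011 at days 1, 3 and 7, beside 0.0098, 0.0063 and 0.0033 for all genes. The members past the test numbered 0, 1 and 0, against 0.592%, 1.03% and 0% of all genes. At an unadjusted p under 0.05 there were 2 of 10 at day 1, 2 at day 3 and 1 at day 7, beside 13.2%, 14.4% and 9.37% of all genes. The SD over the 6 replicates was larger than in 98.1% of all genes for Abcb1a and 96.3% for Kdr, and as low as the 1.27th percentile for Slco1a4 and the 2.49th for Tek. Whether a narrow spread comes with a dim spot cannot be read from ratios. Over the 6 replicates, as a description with n = 6 values that share arrays between genes, Pearson's r among the members ran from -0.88 for Abcb1a with Pecam1 to 0.81 for Cldn5 with Esam. None of the 10 passed in any of the 3 differences between days, in which 0%, 0.356% and 0.121% of all genes passed (day 3 minus day 1, day 7 minus day 3, day 7 minus day 1). At an unadjusted p under 0.05 there were 1, 2 and 3 members, beside 8.85%, 13% and 12.9% of all genes.

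**Figure D4:**
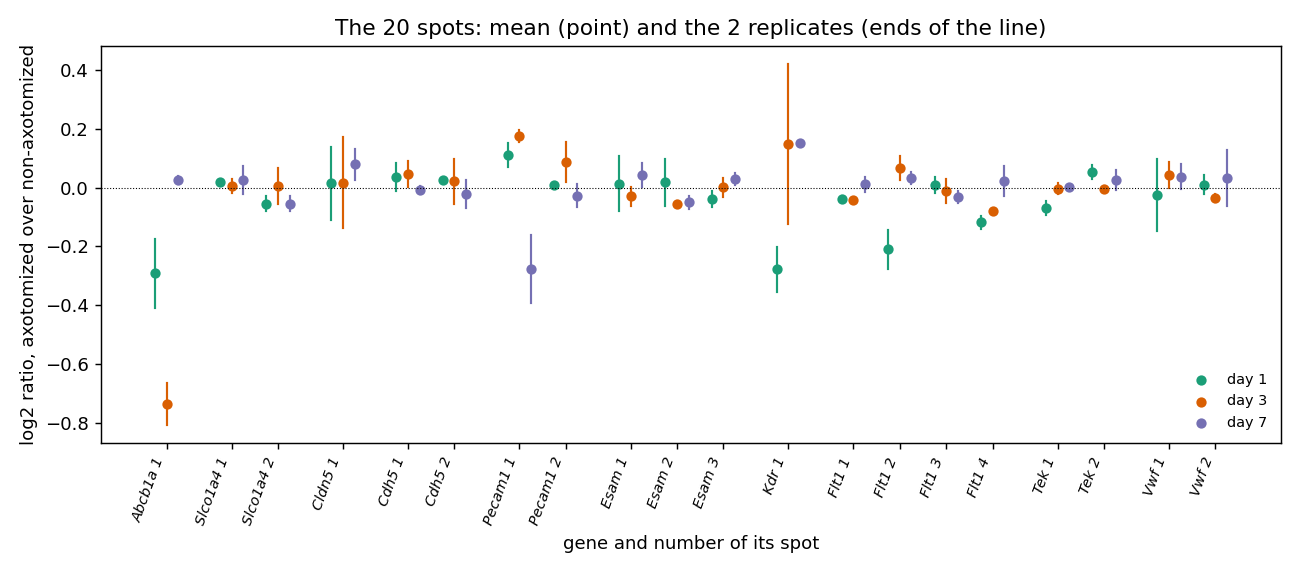
Log2 ratio (y axis) on each of the 20 spots (x axis, gene and number of the spot) at days 1, 3 and 7: points are means and line ends the 2 replicates. Most spots lie near 0 on all days, while 1 of the 2 Pecam1 spots is at -0.28 at day 7 and 1 of the 4 Flt1 spots at -0.21 at day 1.

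Of 19 other transporters of the barrier, Slc7a1, which carries cationic amino acids such as arginine, was lower at day 1 and at day 3. Its log2 ratios were -0.45 and -0.50 at day 1 (mean -0.47 ± 0.035, adjusted p = 0.0281) and -0.39 and -0.25 at day 3 (mean -0.32 ± 0.099, adjusted p = 0.0468). At day 7 it had a mean of 0.13 (adjusted p = 0.458). Of all genes, 0.222% passed as lower at day 1 and 0.437% at day 3. Both calls of Slc7a1 were lost when any of the 6 replicates was left out (adjusted p of 0.0537 to 0.231 at day 1 and 0.0879 to 0.155 at day 3). Quantile normalization gave -0.90 at day 1 in place of -0.47 and -0.78 at day 3 in place of -0.32 (adjusted p = 0.00298 and 0.00721). No other gene of this list passed on any day. Slc2a1, the glucose carrier of the barrier, had -0.87 ± 0.15 at day 1 (adjusted p = 0.0921). Slc7a5, a carrier of large neutral amino acids, had -0.32 ± 0.10, -0.33 ± 0.13 and 0.22 ± 0.056 at days 1, 3 and 7 (adjusted p = 0.111, 0.0802 and 0.373), and its partner chain gene Slc3a2 had -0.60 ± 0.077 at day 3 (adjusted p = 0.0758). Slco1c1, a thyroid hormone carrier, had 0.43 ± 0.21 and Slc16a1, a lactate carrier, -0.17 ± 0.054 at day 7 (adjusted p = 0.433 and 0.452). These carriers are also active in neurons and glia. The median of the list was -0.018, 0.015 and 0.016 at the 3 days.

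Other junction and identity genes of endothelium showed no change that passed. None of 15 further junction and adhesion genes passed on any day; their medians were 0.015, 0.059 and -0.023. Mcam, an adhesion molecule of endothelium and mural cells, had -0.28 ± 0.061, 0.15 ± 0.059 and 0.26 ± 0.014 (adjusted p = 0.0654, 0.185 and 0.241), and Ocln, the occludin gene of tight junctions, 0.20 ± 0.13, 0.15 ± 0.03 and -0.24 ± 0.011 (adjusted p = 0.203, 0.25 and 0.306). Icam2 had 0.12 ± 0.0028 at day 1, the claudin gene Cldn1 0.19 ± 0.12 at day 3 and F11r, a junctional adhesion molecule, 0.21 ± 0.091 at day 7 (adjusted p = 0.269, 0.15 and 0.514). None of 22 further identity genes passed; their medians were 0.0066, 0.027 and -0.01. Ramp2, a partner of the adrenomedullin receptor, had 0.15 at day 1 and -0.15 at day 3, the transcription factor genes Fli1 and Ets1 had 0.14 and 0.21 at day 3, and Ets1 had -0.19 at day 7 (adjusted p = 0.38, 0.336, 0.226, 0.271 and 0.514). Fli1 and Adgrl4 had 0.091 and -0.13 at day 1, and Sox17 and Egfl7 0.084 and -0.10 at day 7 (adjusted p of 0.445 or more).

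Of 5 leukocyte adhesion molecules, Icam1, which endothelium and glia raise in inflammation, was lower at day 1, with -0.36 and -0.33 (mean -0.34 ± 0.025, adjusted p = 0.0292). At that day 0.222% of all genes passed as lower. The call of Icam1 was lost when any of the 6 replicates was left out (adjusted p of 0.054 to 0.295). It was also lost with quantile normalization, which gave -0.44 (adjusted p = 0.157). At days 3 and 7 Icam1 had -0.098 and -0.062 (adjusted p = 0.288 and 0.634). Vcam1 had -0.095, 0.16 and -0.11 at the 3 days (adjusted p = 0.734, 0.527 and 0.765). Madcam1 had -0.11 at day 1, and the selectin genes Selp and Sele had 0.058 at day 3 and 0.051 at day 7 (adjusted p = 0.27, 0.627 and 0.731).

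Of 16 listed genes of VEGF, angiopoietin and other vessel signals, with Angptl4, Apln, Adm and Notch4 among them, 1 rose at day 1 and 1 at day 3. At these days 0.37% and 0.592% of all genes passed as higher. Angpt1, the ligand that activates Tek, had 0.39 and 0.52 at day 1 (mean 0.45 ± 0.092, adjusted p = 0.0316). Angptl4, an angiopoietin-like protein that inhibits lipoprotein lipase, had 0.28 and 0.32 at day 3 (mean 0.30 ± 0.033, adjusted p = 0.0412). Both calls were lost when any of the 6 replicates was left out (adjusted p of 0.054 to 0.183 and of 0.0694 to 0.191). Quantile normalization gave 0.86 for Angpt1 at day 1 and 0.30 for Angptl4 at day 3, and neither then passed (adjusted p = 0.237 and 0.0689). Vegfa, the ligand of Kdr and Flt1, had -0.43 and -0.35 at day 1 and -0.40 and -0.27 at day 3. All 4 values are low, and the means of -0.39 ± 0.053 and -0.34 ± 0.094 missed the threshold (adjusted p = 0.0518 and 0.0555). Adm, the vasodilator peptide adrenomedullin, had -0.62 ± 0.065 at day 1 and Apln, the peptide apelin, 0.46 ± 0.22 at day 3 (adjusted p = 0.176 and 0.0749). At day 7 the smallest p-values were those of Notch4, Angptl4 and Angpt2, with 0.13, -0.072 and 0.11 (adjusted p of 0.538 or more). The medians were -0.021, 0.0094 and 0.011.

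None of 15 xenobiotic sensors and their targets, the class of genes that governs or accompanies efflux pumps, passed on any day. Hmox1, the heme oxygenase gene, had -0.80 and -0.51 at day 1 and -1.04 and -0.64 at day 3, low in all 4 replicates, with means of -0.65 ± 0.21 and -0.84 ± 0.29 (adjusted p = 0.102 and 0.0504). Nfe2l2, the transcription factor NRF2, and Nqo1, a target of it, had -0.21 ± 0.092 and -0.17 ± 0.002 at day 3 (adjusted p = 0.147 and 0.151). Gstm1 of the same list had 0.24 in replicate 1 and 0.23 in replicate 2 at day 3. At an unadjusted p under 0.05 in limma's fit, 3 genes of the list were higher and 3 lower at day 3. Of all genes, 7.81% were higher and 6.62% lower by that rule. Nr1i2, the pregnane X receptor, which induces P-glycoprotein, had -0.095 at day 1 (adjusted p = 0.371). The cytochrome gene Cyp3a9 had -0.13 and 0.27 at days 1 and 7, and the transporter gene Abcc3 had -0.11 at day 7 (adjusted p = 0.324, 0.265 and 0.432). Cyp1a1, a cytochrome gene induced through the aryl hydrocarbon receptor, had 0.30, 0.45 and -0.57 at the 3 days (adjusted p = 0.402, 0.196 and 0.325), and its day 3 value was the highest of the list. The medians of the list were 0.034, -0.018 and -0.053.

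**Figure D5:**
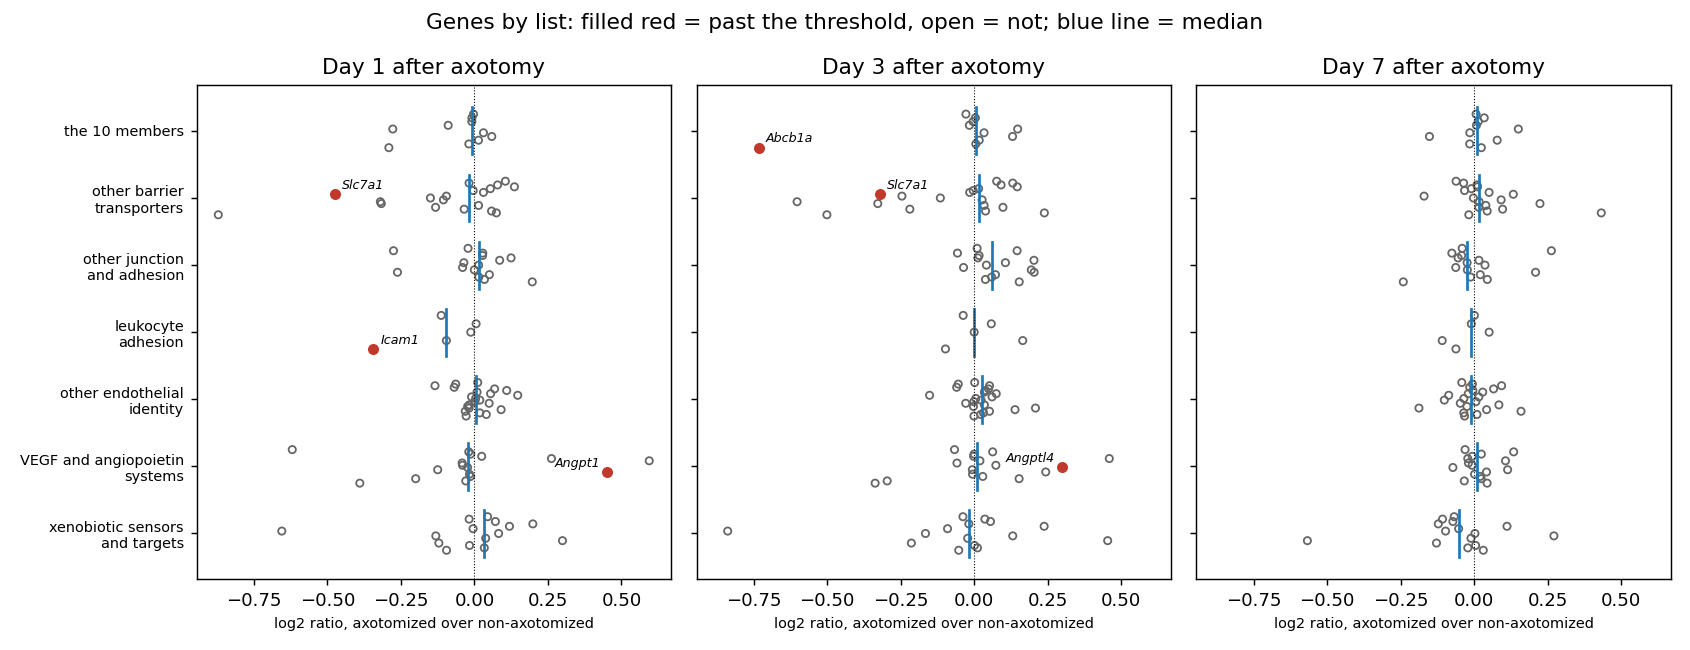
Log2 ratio of axotomized over non-axotomized cultures (x axis) for every measured gene of each list (rows) at days 1, 3 and 7: filled red points passed limma's test, open points did not, and blue lines are medians. Abcb1a at -0.73 is the lowest filled point, and no gene of any list passed at day 7.

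Of the markers of other cells, 3 astrocyte genes passed at day 3 and 1 red cell gene at day 1. None of 10 pericyte and mural cell markers passed; their medians were 0.0067, 0.02 and 0.031, with replicate means between -0.018 and 0.15. Of 10 astrocyte markers, Glul, Gjb6 and Aqp4 rose at day 3 by 0.75 ± 0.023, 0.40 ± 0.016 and 0.34 ± 0.10 (adjusted p = 0.0136, 0.0232 and 0.0468), where 0.592% of all genes passed as higher. These calls were lost without a replicate of day 1 or day 3, and Aqp4 also without a replicate of day 7 (adjusted p of 0.056 to 0.0789, 0.0715 to 0.113 and 0.0841 to 0.19). The list had replicate means of 0.34 and 0.26 at day 3, with 8 of 10 above 0. Gfap was the lowest of it, with 0.056 and -0.079, and Slc1a3 had 0.00013 and -0.0062. Microglia markers had replicate means of 0.26 and 0.19 at day 3, with a median of 0.22 and none past the test. Choroid plexus markers had a median of 0.16 at day 3, with none past the test and all 8 above 0, where 46.2% of all genes were below 0. Their replicate means of 0.22 and 0.63 were raised by Ttr with 0.73 and 2.18, Enpp2 with 0.65 and 1.28 and Otx2 with 0.11 and 0.96. Neuron markers had replicate means of -0.035 and 0.17 at day 3. The part of these markers in the day 3 value of Abcb1a was not tested. Of 6 red cell and platelet markers, which had a median of 0.03 at day 1, the globin gene Hbb-b1 rose at that day by 1.06 ± 0.39 (adjusted p = 0.0399). At that day 0.37% of all genes passed as higher. The call of Hbb-b1 held only without day 1 replicate 1 among the 6 leave-outs (adjusted p = 0.0369, otherwise up to 0.0881). The other beta-globin symbol, Hbb, had 0.024 and -0.018 at day 1, and Alas2, of heme synthesis in red cells, had 0.045 in one replicate and 0.044 in the other. None of the 6 passed at days 3 and 7. Quantile normalization gave 1.23 for Glul, 0.45 for Gjb6 and 0.33 for Aqp4 at day 3 (adjusted p = 0.00579, 0.0352 and 0.422), so Aqp4 no longer passed. For Hbb-b1 at day 1 it gave 1.65 (adjusted p = 0.00298).

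The genes whose 6 replicate values followed Abcb1a most closely were Arhgef39, Cog7, Nsa2, Rorb and Gnb1l, with Pearson's r of 0.996, 0.994, 0.994, 0.993 and 0.992. Their values spanned less, with SDs over the 6 replicates of 0.025 to 0.16, beside 0.35 for Abcb1a. Rorb, the widest of them, had -0.30 and -0.21 at day 3 (adjusted p = 0.0634). For Cldn5 they were Kcnip4, Rab6a, Satb1, Akap13 and Cnot4, with r of 0.994, 0.991, 0.99, 0.99 and 0.988. Each of them, like Cldn5, was lower in replicate 1 than in replicate 2 on each day. With 6 values and 14871 genes such coefficients describe these samples, and none of the 5 genes like Cldn5 passed at day 3 (adjusted p of 0.846 or more).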

How the data were processed

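The values deposited are log2 ratios, 1 per spot and array. Limma is named in the submitters' processing notes without a version. How the authors corrected background and normalized, the log base and the direction are not given in the sources used here; base 2 follows limma's convention. Column medians lay between -0.022 and 0.027, so centring near 0 is seen in the values, while scaling between arrays stays unknown. Ratios carry no intensity, so dim spots were not filtered.

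Gene symbols came from the platform annotation: 23535 spots have 1 symbol, 48 several and 20707 none. Spots of 1 symbol were averaged into 14871 genes, of which the symbols of all 10 members match current RefSeq. Columns were averaged per dye-swapped pair with no sign change, since all likely run in 1 RNA direction: 733 spots carry a part over 1 that turns with the dye, 731 of them unnamed, with medians of -4.26 where axotomized RNA was in Cy5 and 3.81 where it was in Cy3. The resulting 6 values per gene went into limma 3.58.1 (R 4.3.3, data.table version 1.17.8) with a coefficient for each day. Tests against 0 were two-sided, p-values were adjusted by Benjamini-Hochberg over the whole table, and the threshold was an adjusted p under 0.05. The spread is shared over days (residual degrees of freedom 3, prior 2.72). Contrasts between days, their average and a fit of every spot used the same model.

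Members and gene lists were chosen with earlier results of these data known. Named genes are all members; per list and day, up to 3 genes with the smallest p; marker genes that passed; relatives Abcb1b, Slco1a1 and Slco1a5; and the 5 genes most correlated with Abcb1a and with Cldn5. List genes with no named spot (9) are not analysed here. Same-numbered replicates of different days were not paired, since the labels do not say that a number is shared between days. Their deviations correlated at 0.26 for days 1 and 3, -0.068 for days 1 and 7 and 0.014 for days 3 and 7. Simulations drew independent normal noise for 14871 genes from each gene's fitted spread, with no dye split and no dependence between genes. In them 94 to 97% of genes moved by 0.5 were recovered. False calls were 14 of 209, 12 of 206 and 11 of 204 at days 1, 3 and 7. These shares lie above the one the threshold aims at. The noise was drawn only a single time, so whether they exceed it beyond the noise of a draw cannot be told. This recovery does not carry over to single genes of the arrays: Slc2a1, at -0.87 at day 1, did not pass. Alternatives left out replicates, added a replicate block, changed normalization, spot summary, prior or dye, or used single arrays. Python 3.11.15, pandas 2.3.3, scipy 1.17.1, Biopython 1.88 and matplotlib 3.10.9 served for lists, promoters and figures.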

Additional observations from a re-analysis of the deposited data

Results flagged for a closer look

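Among the genes named, 1 showed a difference between days that passed limma's test of that difference. Glul, the glutamine synthetase gene of astrocytes, had a log2 ratio of -0.09 at day 7 and 0.75 at day 3, and day 7 minus day 3 was -0.85 (adjusted p = 0.0412); the 2 replicates of day 7 were lower than both of day 3. It passed in 6 of 14 alternatives, in none of the 6 that left out a replicate (adjusted p of 0.0518 to 0.112), and ran from -1.31 to -0.78. None of the 10 endothelial and barrier genes had such a difference. The nearest was Abcb1a, with 0.76 for day 7 minus day 3 (adjusted p = 0.0557). Groups of 2 replicates are too small for a test of outlying samples.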

How the results depend on the processing

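Of the per-day values of members and named list genes, the average and day differences of members and Glul at day 7 minus day 3, no called value changed sign under the alternatives run; those for the average and the differences were chosen after seeing the data, and each day alone cannot give them. The average of Abcb1a passed in 5 of 14 alternatives and ran from -0.73 to -0.25. Its day 7 minus day 3 passed in 3 of 14, and Pecam1 at day 7 minus day 3 and Abcb1a at day 3 minus day 1 in 2 of 14 each. The count of members past the threshold at day 3, 1 in the fit reported, ran from 0 to 1 with a replicate left out and was 0 with each day alone; at day 1 it was 1 in place of 0 with the 12 arrays in a random block, with or without a dye term, where Abcb1a had -0.29 (adjusted p = 0.0219 and 0.0413). At day 7 it was 0 throughout. The count over all genes at day 1, 88, ran from 0 to 36 with a replicate left out and was 53 with a replicate block, 13 with each day alone, 720 in the random block, 594 with a dye term, 654 with axotomized RNA in Cy5 only and 56 with it in Cy3 only. At day 3, 153 became 0 to 84 with a replicate left out, 66 with a replicate block, 75 with quantile normalization, 0 with each day alone, 1064 in the random block, 958 with a dye term and 298 in Cy5 only. At day 7, 0 became 0 to 18 with a replicate left out, 15 with quantile normalization, 288 in the random block and 194 with a dye term. The random block enters the arrays of 1 RNA pair singly, with 1 estimated correlation between them for all genes. That correlation was -0.17 without a dye term and 0.23 with it. Fits with fewer samples have fewer degrees of freedom. Other causes were not tested. The replicate block left Abcb1a past the threshold at day 3 (adjusted p = 0.0318). With 2 replicates a day and no intensities, small changes of the other 9 members are limited only by their intervals.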

Other observations

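The dye orientation shows in the values of several members as a split that recurs on all days. Slco1a4 averaged -0.082 where axotomized RNA carried Cy5 and 0.063 where it carried Cy3, Tek -0.077 and 0.078, and Cldn5 -0.082 and 0.15. Abcb1a averaged -0.25 and -0.41, below 0 in both orientations, and Cdh5 0.011 and 0.023. Averaging a dye-swapped pair removes such a split where it is equal on both arrays.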
